A study of Homo sapiens with 6 samples.

Results

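Oxidative phosphorylation was examined at the level of its mRNAs in METTL3-silenced ARPE19 cells. The genes were chosen by a rule on their names, which takes protein-coding genes whose symbol begins with NDUF, COX followed by a digit or A, UQCR, UQCC, ATP5, SDH with a letter from A to D or AF, CYC1, CYCS, TIMM, TOMM, CHCHD or MT-. The deposited table holds 7758 genes, and 53 of them met the rule, of which 45 are encoded in the nucleus and 8 in the mitochondrial genome. GENCODE release 29 annotates 151 nuclear and 13 mitochondrial protein-coding genes with such names, so the remaining genes of the respiratory chain, CYCS among them, were not analysed here. For comparison, 33.8% of all annotated protein-coding genes are in the table. The table had been restricted by the authors to genes they had called as different, and the shares of higher and lower genes below describe that selection and not the whole respiratory chain.

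ARPE-19 is an immortal human line derived from the retinal pigment epithelium (RPE). The compared groups were sh-METTL3 and sh-Control cells (scramble genotype in the labels), and both had been given LPS (lipopolysaccharide, an inflammatory component of bacterial walls) for 24 h at 1 μg/ml. Each group had 3 RNA-seq libraries, 6 in all. Per the study's methods the hairpins were delivered by lentivirus and stably transformed cells were selected, and the labels leave unstated if separate cultures were used within a group, so p-values measure only the spread between these libraries, which may be technical. No group without LPS was analysed here.

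Mitochondria make most of the ATP of a resting cell by passing electrons along complexes I, II, III and IV of the inner membrane and using the proton gradient so formed to drive complex V, the ATP synthase. A few core subunits of complexes I, III, IV and V are encoded in the circular mitochondrial genome, whose strands are each transcribed as long precursors and cut apart largely at the tRNAs between the genes. All other subunits are encoded in the nucleus, made in the cytosol and carried in by the TOMM and TIMM translocases. RPE cells are rich in mitochondria and are known for relying on oxidative metabolism while passing glucose on to the photoreceptors.

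The reads on listed genes numbered between 10898434 and 17750052 per library. Values are scaled counts, that is the number of reads on a gene divided by one size factor for the library. METTL3, the targeted gene and the catalytic subunit of the m6A writer, had scaled counts of 1154, 1108 and 1091 in the 3 control libraries and 966, 1001 and 765 in the 3 sh-METTL3 libraries. The groups did not overlap, and METTL3 fell by 18.5% from 1118 ± 32.8 to 911 ± 128 (SD, n = 3), a log2 fold change of -0.30 (SE 0.10, limma adjusted p = 0.032). That call was lost without any one of the control libraries, with adjusted p-values of 0.124, 0.0958 and 0.0684 without replicates 1, 2 and 3. Of 13 RPE markers 6 were listed, and KRT8, KRT18 and MITF were higher while SERPINF1, PMEL and BEST1 were lower, and RPE65 and RLBP1 were among those not analysed here. The 6 listed markers had a median log2 fold change of -0.66. SERPINF1 fell from 1404 ± 21.1 to 170 ± 11.8, PMEL from 368 ± 5.99 to 105 ± 8.41 and BEST1 from 82.8 ± 4.56 to 25.4 ± 9.22 (SD, n = 3), whereas the summed scaled count of the 6, most of it from the keratins KRT8 and KRT18, was 18748 to 20001 in the control libraries and 29908 to 33192 in the sh-METTL3 libraries. Of 7 fibroblast markers 4 were listed and all were lower (COL1A1, COL1A2, THY1 and PDGFRB, summed 11364 to 13232 against 4730 to 5383), 2 of 5 leukocyte markers were listed, of which CD14 was lower (25.3 ± 0.609 against 1.31 ± 1.41, SD, n = 3) and CSF1R higher (79.9 ± 10.7 against 159 ± 19.4, SD, n = 3), at sums of 93.5 to 115 against 142 to 178, and none of 4 endothelial markers was listed. The part of these marker differences in the results below was not tested.

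The mitochondrial encoded mRNAs moved in opposite directions within one genome. In METTL3-silenced cells MT-ND1 fell by 21.6%, MT-ND2 fell by 25.1% and MT-ND3 fell by 20.8%, whereas MT-CO2, MT-ND5, MT-ND6 and MT-CYB rose by 21.9% to 30.7%. MT-ND4 was 16.7% higher on average and did not pass the test. Of the 8 mRNAs, 4 were therefore higher and 3 lower by limma, against 46.6% of all listed genes higher and 51.3% lower. Their median log2 fold change was 0.26, and that of all listed genes was -0.21. In 5 of the 8 all sh-METTL3 libraries lay above all control libraries and in 3 they lay below (46.7% and 51.7% of all listed genes). The genes encode subunits of complex I (the ND genes), complex III (MT-CYB, cytochrome b) and complex IV (MT-CO2, the subunit that takes electrons from cytochrome c). In bulk RNA, a change in the number of mitochondrial genomes per cell and a change in RNA per genome cannot be told apart, nor can fewer cells of a type and less RNA per cell.

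The ends of these mRNAs are shown to set the 3 falling genes beside the others. The first 18 bases carry the start codon in capitals, and the last bases carry in capitals what the genome itself encodes of the stop codon. The sequences are the GENCODE release 29 transcripts (GRCh38, chromosome MT, 5′ to 3′), at chrMT:3307-4262 for MT-ND1, chrMT:4470-5511 for MT-ND2, chrMT:7586-8269 for MT-CO2, chrMT:10059-10404 for MT-ND3, chrMT:10760-12137 for MT-ND4, chrMT:12337-14148 for MT-ND5, chrMT:14149-14673 for MT-ND6 on the minus strand and chrMT:14747-15887 for MT-CYB.
MT-ND1 start: ATAcccatggccaacctc
MT-ND1 end: agcattccccctcaaaccTA
MT-ND2 start: ATTaatcccctggcccaa
MT-ND2 end: tttatactaataatcttaT
MT-CO2 start: ATGgcacatgcagcgcaa
MT-CO2 end: gggcccgtatttaccctaTAG
MT-ND3 start: ATAaacttcgccttaatt
MT-ND3 end: ggattagactgaaccgaaT
MT-ND4 start: ATGctaaaactaatcgtc
MT-ND4 end: attaccgggttttcctctT
MT-ND5 start: ATAaccatgcacactact
MT-ND5 end: accctactcctaatcacaTAA
MT-ND6 start: ATGatgtatgctttgttt
MT-ND6 end: gagattgctcgggggaatAGG
MT-CYB start: ATGaccccaatacgcaaa
MT-CYB end: aaaatactcaaatgggccT
In 5 of the 8 the stop codon is incomplete in the genome and is finished by the poly(A) tail. These are the 3 mRNAs that fell, MT-CYB, which rose, and MT-ND4, which did not pass the test.

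The 3 falling mRNAs all encode core membrane subunits of complex I. MT-ND1 had scaled counts of 25301, 23406 and 23664 in the control libraries and 19774, 19487 and 17459 in the sh-METTL3 libraries, a log2 fold change of -0.35 (SE 0.07, limma adjusted p = 0.00237). MT-ND2 stood at 24559, 21040 and 22422 against 18133, 17893 and 14916, and its log2 fold change was -0.42 (SE 0.09, limma adjusted p = 0.0038). For MT-ND3 the values were 13277, 11631 and 13416 against 10295, 10598 and 9455, with a log2 fold change of -0.34 (SE 0.07, limma adjusted p = 0.00402). In each of the 3 genes every sh-METTL3 library was below every control library, and sh-METTL3 replicate 3 was the lowest of the 6.

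The rising mRNAs covered 3 complexes. MT-CO2 had scaled counts of 41964, 34845 and 35238 in the control libraries and 46679, 48008 and 51769 in the sh-METTL3 libraries, which gave a log2 fold change of 0.39 (SE 0.09, limma adjusted p = 0.00587). MT-ND6, the one mRNA of the minus strand, went from 17934, 16339 and 17413 to 21258, 21308 and 22062, with a log2 fold change of 0.32 (SE 0.06, limma adjusted p = 0.00172). Both genes had no overlap between groups, and control replicate 1 was the highest control in each. MT-CYB was measured at 34569, 28985 and 29094 against 36721, 39881 and 38825 (log2 fold change 0.32, SE 0.08, limma adjusted p = 0.0117), and MT-ND5, which codes for a proton-pumping subunit of complex I, at 56380, 48520 and 51629 against 62312, 63174 and 65312 (log2 fold change 0.29, SE 0.08, limma adjusted p = 0.0176). Neither gene had overlapping groups, but both calls were lost without certain libraries. The adjusted p of MT-CYB was 0.0584, 0.0578 and 0.0578 without control replicate 2, control replicate 3 and sh-METTL3 replicate 2, and that of MT-ND5 was 0.0745, 0.0626, 0.0573 and 0.0646 without control replicate 2, control replicate 3, sh-METTL3 replicate 1 and sh-METTL3 replicate 2. MT-ND4, another proton-pumping subunit of complex I, had scaled counts of 85488, 76034 and 77765 against 94920, 95356 and 88959. Its groups did not overlap either, and its log2 fold change of 0.22 (SE 0.09) missed the threshold with limma (adjusted p = 0.083) and passed it with edgeR on the recovered reads (adjusted p = 0.0254). Without control replicate 1 or sh-METTL3 replicate 3 it also passed with limma, at an adjusted p of 0.0486 and 0.033.

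**Figure D1:**
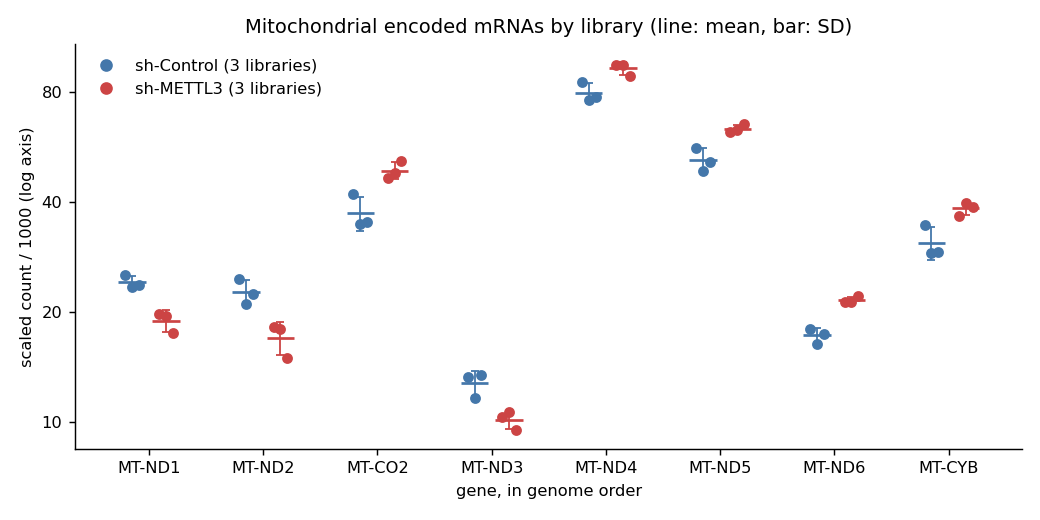
Scaled counts divided by 1000 (log axis) of the 8 listed mitochondrial mRNAs in genome order, 1 point per library, with the mean as a line and the SD (n = 3) as a bar. The sh-METTL3 points lie below the control points for MT-ND1, MT-ND2 and MT-ND3 and above them for the other 5 genes.

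Ratios between mitochondrial mRNAs of one library do not depend on how libraries were scaled to each other. The ratio of MT-ND1 to MT-CYB was 0.732, 0.808 and 0.813 in the control libraries and 0.538, 0.489 and 0.450 in the sh-METTL3 libraries. MT-ND2 stood to MT-ND4 as 0.287, 0.277 and 0.288 in the control libraries and as 0.191, 0.188 and 0.168 in the sh-METTL3 libraries. In each pair the first gene was lower and the second higher in every sh-METTL3 library than in any control library. Both ratios therefore had to be lower in every sh-METTL3 library, and this separation adds no support of its own. The sums that follow are split by the same directions. Taken as a sum, MT-ND1, MT-ND2 and MT-ND3 had scaled counts of 56077 to 63137 in control and 41830 to 48202 in sh-METTL3 libraries, and the other 5 mRNAs had 204723 to 236335 against 261891 to 267726. The 8 mRNAs together held 1.80% to 2.12% of the scaled counts on listed genes in the control libraries and 2.22% to 2.26% in the sh-METTL3 libraries. Per kilobase of transcript, the control level of the 8 ranged from 21760 for MT-ND2 to 57883 for MT-ND4, and the nuclear members had a median of 391 and a highest value of 1699 for COX8A on the same scale.

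The listed mitochondrial genes that are not mRNAs are given for position, since the transcript is cut from one precursor per strand. MT-RNR1, the small ribosomal RNA, lies nearest to the promoters of the plus strand and fell by 42.3%, from 17760 ± 1394 to 10244 ± 681 (SD, n = 3), a log2 fold change of -0.79 (SE 0.07, limma adjusted p = 1.84e-05). The large ribosomal RNA MT-RNR2 had 143103 ± 5638 against 118115 ± 8021 (SD, n = 3) and a log2 fold change of -0.28 that did not pass (limma adjusted p = 0.0532). MT-TL1, the leucine tRNA between MT-RNR2 and MT-ND1, had a log2 fold change of -1.13 (limma adjusted p = 3.96e-05), and the minus-strand tRNAs MT-TN, MT-TC and MT-TY between MT-ND2 and MT-CO2 were also lower (-0.35, -0.52 and -0.78). In plus-strand coordinates, every listed gene numbered before MT-CO2, on either strand, had a lower mean in sh-METTL3 cells, and from MT-CO2 onward MT-ND3 and the minus-strand proline tRNA MT-TP (log2 fold change -0.61) were the lower ones. MT-TR, the arginine tRNA that follows MT-ND3, was higher, with a log2 fold change of 0.99 (SE 0.26, limma adjusted p = 0.0119) on scaled counts of only 20.6 to 35.9 in control and 49.3 to 63.4 in sh-METTL3 libraries. Reads of ribosomal and transfer RNA depend on how a library kit selects RNA and fragment length.

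**Figure D2:**
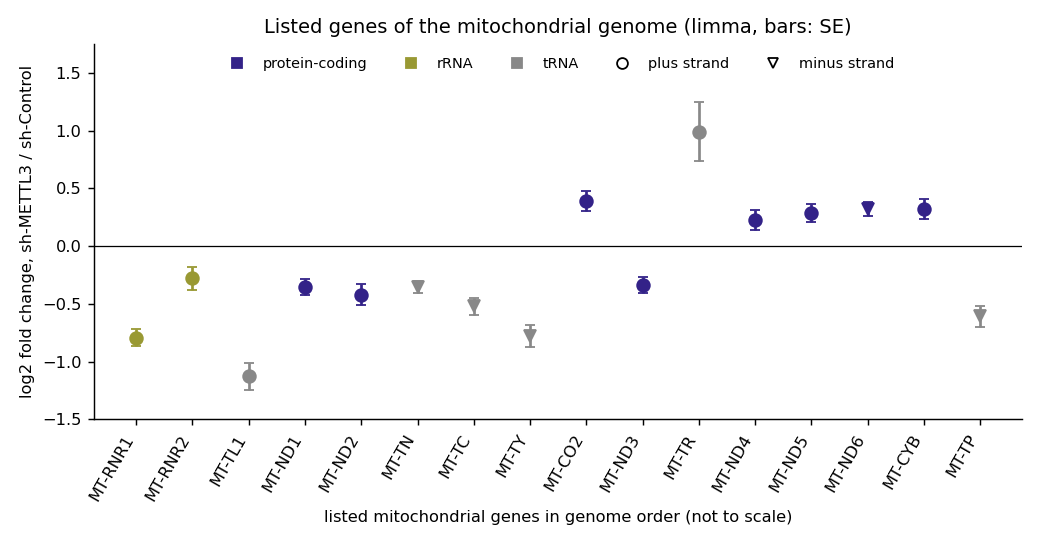
Log2 fold change (sh-METTL3 over sh-Control, limma, bars SE) of the 16 listed genes of the mitochondrial genome in genome order, with mRNAs, rRNAs and tRNAs in separate colours and triangles for the minus strand. The 8 genes before MT-CO2 lie below 0, while MT-CO2, MT-TR, MT-ND4, MT-ND5, MT-ND6 and MT-CYB lie above it.

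Each of the 8 mitochondrial mRNAs has between 22 and 42 named pseudogenes in the nuclear genome, copies of mitochondrial DNA that can share reads with it. MTND2P28, a copy of MT-ND2 on chromosome 1, had a log2 fold change of -0.48 and scaled counts of 2399 ± 207 against 1724 ± 186 (SD, n = 3). MTCO1P12, a neighbouring copy of MT-CO1, had one of 0.27 and scaled counts of 644 ± 43.9 against 776 ± 39.5 (SD, n = 3). MT-CO1 itself was not analysed here. MTCYBP21, a copy of MT-CYB on chromosome 21, had no read in the control libraries and scaled counts of 6.53, 6.44 and 7.84 in the sh-METTL3 libraries. MT-ND4 overlaps MT-ND4L, and the strand of the reads was not given in the sources used here, so reads of MT-ND6 and of plus-strand RNA across it cannot be told apart.

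The nuclear encoded genes changed in both directions and by little. Of the 45, 19 were higher, 24 lower and 2 (COX14 and TIMM44) did not pass, against 46.6% higher and 51.3% lower among all listed genes. Their median log2 fold change was -0.21, as was that of all listed genes. This balance depended on the scaling, since with RLE factors of edgeR 20 were higher and 14 lower, with a median of -0.088. The calls of ATP5F1A, ATP5F1C, COX5A, CYC1, NDUFAB1, NDUFS1, TIMM9, TIMM23, TOMM70 and UQCRC2, all of them lower, ended with those factors. The size of the change had a median of 0.34 on the log2 scale, against 0.62 for all listed genes and 0.54 for listed protein-coding genes. Only 4 of the 45 (CHCHD10, NDUFAF1, TIMM8B and COX6B2) were past a halving or doubling. Among all listed genes 2383 of 7758 were, and among listed protein-coding genes 1700 of 6740. Of the 45, 28 (62.2%) were within 0.5 on the log2 scale, against 40.4% of all listed genes and 45.5% of listed protein-coding genes. The 26 structural subunits of complexes I to V were split into 12 higher and 14 lower, with a median of -0.19. The other 19 members, which assemble, regulate or import, were 7 higher and 10 lower, with a median of -0.24. Of the 43 calls, 10 were lost in at least 1 of the fits without a library: ATP5F1A, ATP5F1E, ATP5MPL, COX5A, COX8A, NDUFA4, NDUFB2, TIMM9, TIMM10B and TOMM70, none of which differed by more than 0.345 on the log2 scale. In these fits the number of higher members ranged from 13 to 19 and of lower ones from 21 to 24.

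**Figure D3:**
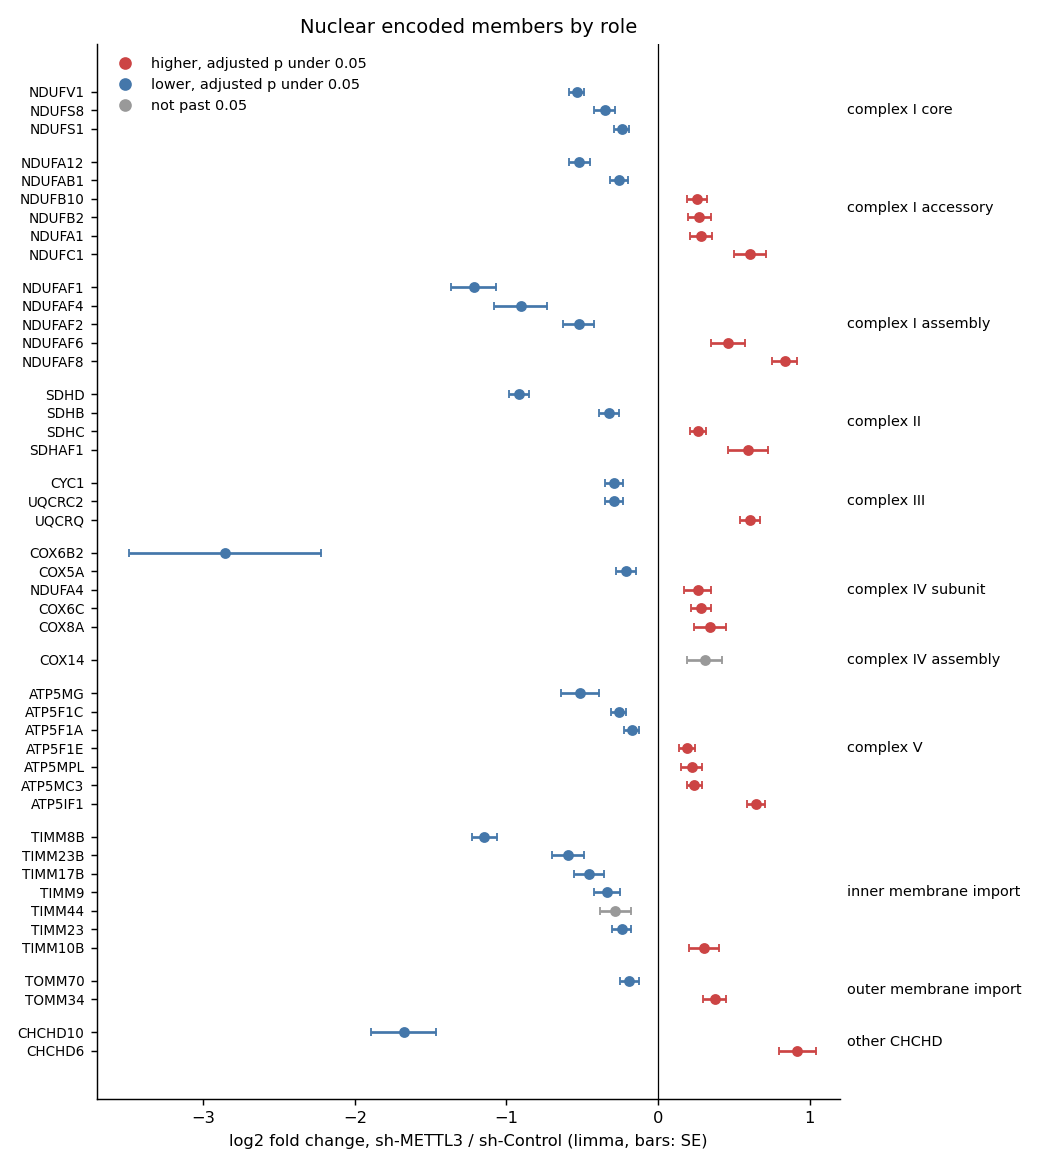
Log2 fold change (sh-METTL3 over sh-Control, limma, bars SE) of the 45 nuclear encoded members, grouped by role and ordered by value within a role. Each role with more than 1 member holds both directions, except the complex I core, where all 3 subunits were lower; COX6B2 at -2.86 is the lowest of all.

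Complex I, the NADH dehydrogenase that feeds electrons into the chain, had 9 structural subunits and 5 assembly factors in the table. The 3 core subunits, which hold the flavin and iron-sulfur centres, were all lower, beside 51.3% of all listed genes. NDUFV1, which binds NADH, had scaled counts of 3815, 3967 and 3969 in control libraries and 2757, 2719 and 2631 in sh-METTL3 libraries, with no overlap and a log2 fold change of -0.54 (SE 0.05, limma adjusted p = 1.77e-05). NDUFS8 fell by 0.35 and NDUFS1 by 0.24 on the log2 scale. Among the 6 accessory subunits, 4 were higher (NDUFC1, NDUFA1, NDUFB2 and NDUFB10, log2 fold changes of 0.61, 0.28, 0.27 and 0.25) and 2 were lower (NDUFA12 at -0.52 and NDUFAB1, the mitochondrial acyl carrier protein, at -0.26), where 46.6% of all listed genes were higher. NDUFS1 and NDUFAB1 did not pass with RLE factors. NDUFC1 went from 364, 373 and 302 to 508, 573 and 501 (limma adjusted p = 0.00127), and NDUFA12 from 905, 976 and 1010 to 677, 674 and 663 (limma adjusted p = 0.000195). Both had separate groups. The exons of NDUFC1 overlap those of MGARP on the same strand, and NDUFB2 overlaps ADCK2, which was higher, and BRAF, which was lower.

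The assembly factors of complex I spanned a wider range than its subunits. NDUFAF1, which helps to build the membrane arm, had scaled counts of 281, 265 and 299 in the control libraries and 128, 139 and 98.5 in the sh-METTL3 libraries. Its level fell by 56.7%, a log2 fold change of -1.22 (SE 0.15, limma adjusted p = 0.000128). NDUFAF4, another assembly factor, stood at 182, 159 and 129 against 94.2, 77.3 and 76.1, with a log2 fold change of -0.91 (SE 0.17, limma adjusted p = 0.0023). In both genes all sh-METTL3 libraries were below all control libraries. NDUFAF2 was also lower (-0.52). In the other direction, NDUFAF8, a small assembly factor, rose by 78.7%, from 392, 426 and 398 to 677, 742 and 752, with no overlap and a log2 fold change of 0.84 (SE 0.08, limma adjusted p = 2.42e-05), and NDUFAF6 was higher by 0.46 on the log2 scale.

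Complex II, the succinate dehydrogenase that links the citrate cycle to the chain, has no mitochondrial encoded subunit. SDHD, one of its membrane anchors, had scaled counts of 1544, 1511 and 1695 in control libraries and 868, 852 and 795 in sh-METTL3 libraries. The groups were far apart, and the gene fell by 47.1%, a log2 fold change of -0.92 (SE 0.07, limma adjusted p = 4.38e-06). The iron-sulfur subunit SDHB was also lower (-0.32), whereas the other anchor SDHC was higher by 0.26. The assembly factor SDHAF1, which acts on the iron-sulfur subunit, rose from 133, 140 and 139 to 240, 195 and 193 (log2 fold change 0.59, SE 0.13, limma adjusted p = 0.0056). Its groups did not overlap, and sh-METTL3 replicate 1 was the highest library.

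Complex III passes electrons from ubiquinol to cytochrome c, and 3 of its nuclear genes were listed. CYC1, the cytochrome c1 subunit, and UQCRC2, a core protein, were both lower, at 2342 ± 94.8 against 1914 ± 115 and at 2921 ± 113 against 2389 ± 126 (SD, n = 3), each with a log2 fold change of -0.29. Neither passed with RLE factors, where CYC1 stood at -0.17 (edgeR adjusted p = 0.063). UQCRQ, a small subunit close to cytochrome b, had scaled counts of 1081, 1190 and 1043 in control and 1612, 1736 and 1696 in sh-METTL3 libraries. These groups did not overlap, and its log2 fold change was 0.61 (SE 0.07, limma adjusted p = 5.76e-05). MT-CYB, the mitochondrial encoded subunit of the same complex, was higher as well.

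For complex IV, cytochrome c oxidase, 5 nuclear subunits and the assembly factor COX14 were listed. COX6C, COX8A and NDUFA4 were higher, by 0.28, 0.34 and 0.26 on the log2 scale. COX8A had scaled counts of 852, 942 and 791 against 1254, 1111 and 934, so that sh-METTL3 replicate 3 fell below control replicate 2, and its call (limma adjusted p = 0.0289) was lost in 4 of the fits without a library, with an adjusted p of up to 0.134. NDUFA4, long counted as a complex I subunit and now placed in complex IV, had 1796, 1869 and 1836 against 2412, 2352 and 1869, where sh-METTL3 replicate 3 lay close to the highest control, and its call (limma adjusted p = 0.0451) was lost in 5 of those fits, with an adjusted p of up to 0.213. C15orf48, a paralogue of NDUFA4 that does not meet the rule and was picked after its values were seen, fell from 551 ± 82.9 to 7.19 ± 4.80 (SD, n = 3). COX5A was lower by 0.21. The lowest of all members was COX6B2, the isoform of COX6B known from testis, at 23.1, 18.3 and 18.7 in control libraries and 0, 6.44 and 2.24 in sh-METTL3 libraries. Its groups did not overlap, but its level was the lowest of the 45, and the log2 fold change of -2.86 (SE 0.63, limma adjusted p = 0.00519) became -4.12 (limma adjusted p = 0.0355) with a pseudocount of 0.1 in place of 1. It was -2.09 without sh-METTL3 replicate 1 and -3.54 without sh-METTL3 replicate 2. The somatic form COX6B1 was not analysed here. COX14 had a log2 fold change of 0.31 and missed the threshold (limma adjusted p = 0.0655).

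Complex V, the ATP synthase, had 6 subunits and 1 inhibitor in the table. ATP5IF1, the inhibitory factor that blocks the enzyme when it would run backwards and use up ATP, rose by 56.9%. Its scaled counts were 1159, 1245 and 1188 in control libraries and 1912, 1938 and 1786 in sh-METTL3 libraries, with no overlap and a log2 fold change of 0.65 (SE 0.06, limma adjusted p = 1.72e-05). ATP5F1A of the catalytic head was lower by 0.17 and ATP5F1C of the central stalk by 0.26, and ATP5F1E, also of the stalk, was higher by 0.19. ATP5MC3, 1 of the genes that encode the identical proton-carrying ring subunit, was higher by 0.24, from 1931 ± 34.4 to 2281 ± 65.0 (SD, n = 3), as was ATP5MPL, by 0.22. ATP5MG, a membrane subunit at the dimer interface, went from 366, 379 and 369 to 266, 304 and 217 (log2 fold change -0.51, SE 0.13, limma adjusted p = 0.00911), and these groups did not overlap.

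**Figure D4:**
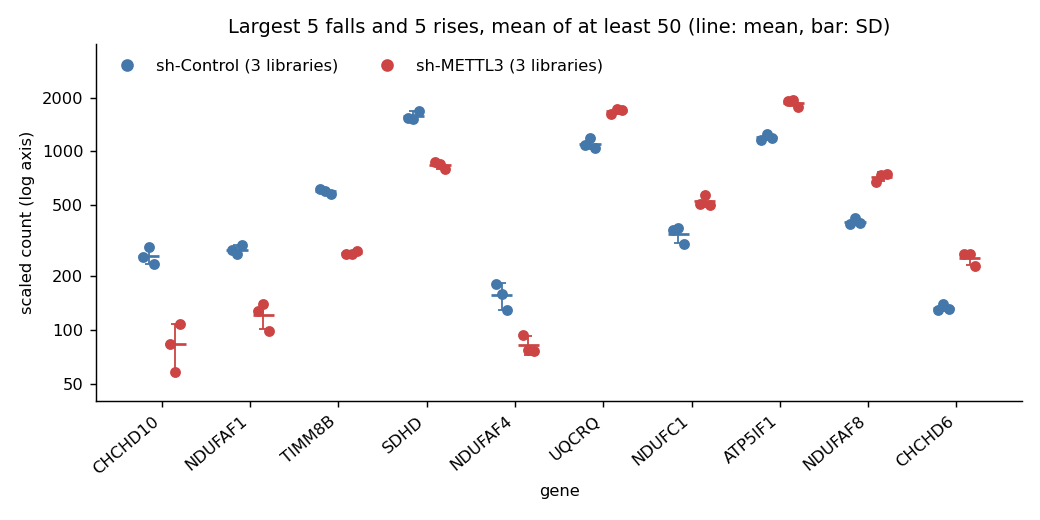
Scaled counts (log axis) of the 5 nuclear members with the largest falls and the 5 with the largest rises among those with a mean of at least 50 and separate groups, 1 point per library, with the mean as a line and the SD (n = 3) as a bar. Only genes whose groups do not overlap were eligible, and the largest fall shown is that of CHCHD10 and the largest rise that of CHCHD6.

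The import genes changed in both directions. Of 7 inner membrane members, 5 were lower and 1, TIMM10B, was higher, and of 2 outer membrane members 1 was lower and 1 higher, against 51.3% lower and 46.6% higher among all listed genes. With RLE factors TIMM9, TIMM23 and TOMM70 did not pass. TIMM8B, a small chaperone of the space between the membranes, had scaled counts of 613, 602 and 580 in the control libraries and 267, 268 and 275 in the sh-METTL3 libraries. The libraries of each group lay close together, and the gene fell by 54.9%, a log2 fold change of -1.14 (SE 0.08, limma adjusted p = 3.57e-06). TIMM9, another small chaperone of that space, was lower by 0.34. The channel genes TIMM23 and TIMM23B were lower by 0.24 and 0.60 and TIMM17B by 0.46, and TIMM44, which ties the import motor to the channel, had a log2 fold change of -0.28 (limma adjusted p = 0.0615) with overlapping groups. TIMM23 and TIMM23B are near-identical copies and may share reads. TIMM10B, another small chaperone, stood at 442, 356 and 396 against 519, 488 and 465, and its call (log2 fold change 0.30, limma adjusted p = 0.0373) was lost in 4 of the fits without a library, with an adjusted p of up to 0.17. In the outer membrane, TOMM34 was higher by 0.38 and the receptor TOMM70 was lower by 0.19, and the call of TOMM70 (limma adjusted p = 0.0389) was lost in 5 of the fits without a library, with an adjusted p of up to 0.182.

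The CHCHD members differed in opposite directions. CHCHD10, a protein of the space between the membranes whose mutations cause motor neuron disease and myopathy, had scaled counts of 258, 290 and 236 in the control libraries and 83.0, 58.0 and 109 in the sh-METTL3 libraries. It fell by 68.1% without overlap between groups, a log2 fold change of -1.68 (SE 0.21, limma adjusted p = 0.000155). Its exons overlap those of MMP11 on the other strand, which was higher (log2 fold change 0.86). CHCHD6, a component of the MICOS complex that shapes the cristae, went from 129, 139 and 131 to 267, 265 and 227. This rise of 90.2% was the largest of the 45 (log2 fold change 0.92, SE 0.12, limma adjusted p = 0.000234), and the groups were separate.

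SDHD and TIMM8B are neighbours. They are read in opposite directions on chromosome 11, and their gene models share 26 bases at chr11:112086773-112086798 (GRCh38), so that in unstranded counts reads over that stretch could not be assigned to one of them. NKAPD1, which overlaps TIMM8B at its other end, was lower as well (log2 fold change -0.70). The stretch before SDHD holds the letters GCGCATGCG, the binding motif of NRF1, a known activator of respiratory chain genes. RefSeq promoters (GRCh38.p14) of 250 bases before to 50 after each start were searched on both strands for these letters, and for CCGGAAGT, the motif of the ETS factor GABPA, and 37 of the 45 nuclear members had an entry. The NRF1 letters were in 3 of the 37 (8.11%), against 2.34% of all genes with a promoter entry and 3.83% of listed ones. The 3 genes were ATP5F1C, SDHD and TIMM9, which were lower, as were 51.3% of all listed genes. With RLE factors SDHD passed and ATP5F1C and TIMM9 did not, and TIMM9 was lost without control replicate 1 (limma adjusted p = 0.0511). The 30 bases around the match are shown 5′ to 3′ in the direction of the gene, with the motif in capitals on whichever strand it was read, and where the motif matched on both strands the overlapping letters are all in capitals. They lie at chr10:7788145-7788174 on the plus strand, chr11:112086753-112086782 on the plus strand and chr14:58427641-58427670 on the minus strand. The stretch shown for SDHD also lies within the gene model of TIMM8B, which is not counted among the 3, so this match is not particular to SDHD.
ATP5F1C: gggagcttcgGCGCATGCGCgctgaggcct
SDHD: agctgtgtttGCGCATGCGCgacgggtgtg
TIMM9: agacacaacaCGCATGCGCgccaagaaact
The GABPA letters were in 7 of the 37 (18.9%), against 4.95% of all genes with a promoter entry and 7.91% of listed ones. Of these 7, COX8A, TIMM10B and UQCRQ were higher and ATP5F1A, NDUFS1, SDHD and TOMM70 were lower, against 46.6% and 51.3% of all listed genes. ATP5F1A, NDUFS1 and TOMM70 did not pass with RLE factors. A match of letters is a description of the window and not a bound site.

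Several of the larger falls, though not all, lay where the neighbouring genes also fell. For each nuclear member the 20 nearest listed genes on its chromosome were examined. A neighbour was counted as lower by the sign of its log2 fold change alone, whereas the totals per chromosome below count limma calls. Around NDUFAF1 on chromosome 15 all 20 were lower, and their median log2 fold change was -1.10 beside -1.22 for NDUFAF1 itself. COX5A, the other member on that chromosome, had 10 lower neighbours of 20 and a neighbourhood median of 0.016. Around ATP5MG on chromosome 11 all 20 were lower as well (median -0.70), around NDUFS8 and NDUFV1 18 of 20 (medians -0.57 and -0.58), and around SDHD and TIMM8B 16 of 20 (median -0.62). Of the 9 members on chromosomes 11 and 15, 6 had at least 16 lower neighbours of 20, and of the 36 members elsewhere 1 did (NDUFAF2). These 6 are not separate neighbourhoods, since SDHD and TIMM8B adjoin and are neighbours of each other. NDUFV1 and NDUFS8 also lie close together, starting at chr11:67605653 and chr11:68030617, with neighbours spanning 1.00 and 1.30 Mb. Of all 578 listed genes on chromosome 11, 441 were lower and 129 higher, with a median log2 fold change of -0.56, and of the 315 on chromosome 15, 211 were lower and 96 higher, with a median of -0.53. The 36 members on other chromosomes were 17 higher, 17 lower and 2 not passed, with a median of 0.01, and the 6865 listed genes on those chromosomes were 3389 higher and 3331 lower, with a median of 0.18. Other large falls stood apart from their surroundings: CHCHD10 on chromosome 22 had 4 lower neighbours of 20 and a neighbourhood median of 0.61. NDUFAF4 on chromosome 6, at -0.91, had 9 lower neighbours of 20 and a neighbourhood median of 0.33. COX6B2 on chromosome 19, the lowest of all members, had 11 lower neighbours of 20 and a neighbourhood median of -0.25. The part of these neighbourhoods in the differences of the members was not tested.

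**Figure D5:**
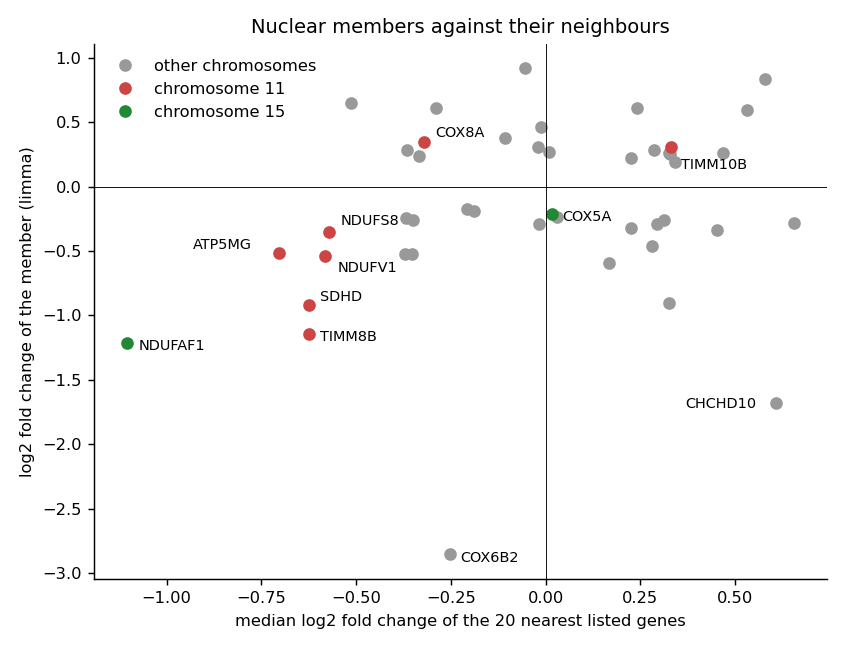
Log2 fold change of each nuclear member (vertical) against the median log2 fold change of its 20 nearest listed genes (horizontal), with members on chromosomes 11 and 15 in colour. NDUFAF1 lies at the far left at -1.10 and -1.22, 5 of the 7 members on chromosome 11 lie at the lower left, and CHCHD10 lies at the lower right.

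Genes that serve the mitochondrial genome and its RNA were mostly lower. Of 8 listed genes for mitochondrial DNA maintenance and transcription, 6 were lower and 1 was higher (median log2 fold change -0.39). The lower ones included TFAM, which packages mitochondrial DNA and takes part in its transcription (-0.49, 1205 ± 46.4 against 859 ± 68.0, SD, n = 3). The helicase TWNK (-0.88), the polymerase POLG (-0.34) and the RNA polymerase POLRMT (-0.24) were lower too. MTERF2 was the higher one, by 0.90. Of 8 genes for mitochondrial RNA processing and stability, 7 were lower and 1, KIAA0391, was higher by 0.56, and the median was -0.27. LRPPRC, which stabilises mitochondrial mRNAs, was lower by 0.21, and PNPT1, which takes part in degrading mitochondrial RNA, by 0.88. All 5 listed regulators of mitochondrial biogenesis (PPARGC1B, PPRC1, GABPB1, ESRRA and MYC) were lower, with a median of -0.74. PPARGC1B, a coactivator of this programme, had 111 ± 15.8 against 44.5 ± 10.0 (SD, n = 3), a log2 fold change of -1.31. Of 15 further assembly factors 11 were lower and 4 higher (median -0.40), among them COA7 at -1.04 and TMEM126B, which takes part in the assembly of complex I, at -0.88. For comparison, all listed genes were 46.6% higher and 51.3% lower. Of the genes in these lists, ESRRA, COA4, FOXRED1 and TMEM126B lie on chromosome 11 and POLG and GABPB1 on chromosome 15. All of these were lower, on chromosomes where 441 of 578 and 211 of 315 listed genes were lower. On the other chromosomes 3389 of 6865 listed genes were higher and 3331 lower. The part of the chromosome in these counts was not tested.

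The citrate cycle and glycolysis, which supply the chain and work beside it, were counted in the same way. Of 9 listed genes of the citrate cycle and pyruvate dehydrogenase, 7 were lower and 2 were higher (median log2 fold change -0.27). DLAT, a subunit of pyruvate dehydrogenase, fell furthest, from 1675 ± 62.1 to 785 ± 39.6 (SD, n = 3), a log2 fold change of -1.09 (limma adjusted p = 9.63e-07), and it lies on chromosome 11. Of 12 listed glycolysis genes, 11 were higher and none was lower (median 0.46). Among all listed genes 46.6% were higher and 51.3% lower, with a median of -0.21. ENO1, at 0.18, was the one that did not pass (limma adjusted p = 0.174). GAPDH had a log2 fold change of 0.70, ENO2 of 0.61, PGK1 of 0.55, PKM of 0.52 and LDHA, which turns pyruvate into lactate, of 0.44. These lists hold the genes of each pathway that were in the table, 9 of 18 and 12 of 21.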

How the data were processed

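RNA-seq was performed on 6 libraries of LPS-treated ARPE19 cells, 3 sh-Control and 3 sh-METTL3, grouped by their labels. Per the submitters' processing notes, HISAT2 2.0.5 and hg38 were used. The study's methods name Cufflinks with RefSeq, whereas the deposited rows are Ensembl genes whose start, end and exonic length equal GENCODE release 29 for all 7758. The read counter and strandedness were not given in the sources used here. The values that the authors deposited for each library are a signal, namely the read count over 1 size factor, and 100% of values were whole reads within 0.01 of a read once rescaled. The authors also deposited group means, log2 fold changes and p-values of their own comparison. These columns were used only to learn that no listed gene had an adjusted p-value above 0.05 and that 22977 genes had been tested. In 13 rows a symbol turned into a date was replaced from GENCODE. The total depth of the libraries is unknown.

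All 7758 genes were fitted with limma 3.58.1 (R 4.3.3) on log2(scaled count + 1), using its intensity trend, two-sided, with Benjamini-Hochberg adjustment over 22977 tests and a threshold of 0.05. Because of the added 1, log2 fold changes of low genes are too small. Of the 7758, 7597 passed, and edgeR 4.0.16 on the recovered reads called 7645. The members and gene lists were chosen with earlier results of these data known. Named genes were METTL3, every mitochondrial member, isoform genes, and the largest rise and fall of each role. The 5 largest rises and falls with a mean of at least 50 and separate groups were named too. Other members are given by their log2 fold change, with further values for UQCRC2, COX14, TIMM9 and TIMM44. Lists are described by counts and medians, without a test. The result for 1 gene of these lists is not reported here. Alternatives were edgeR with other scaling factors, DESeq2 1.42.0, a pseudocount of 0.1, a mean of at least 50, adjustment over listed genes, a threshold of 0.01, no trend, a replicate block and fits without each library. The fits were tested on simulated data. Principal components 1 and 2 held 89.8% and 3.36% of the variance, and replicates of a group differed by more than sampling noise (chi-square per degree of freedom of 3.89 to 17.6).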

Additional observations from a re-analysis of the deposited data

How the results depend on the processing

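No member changed sign under any of the 17 alternatives, which carries little information because the table holds only genes called as different. MT-ND1, MT-ND2, MT-ND3, MT-CO2 and MT-ND6 kept their calls in all 17, and 3 mitochondrial members were lower in each. RLE factors of edgeR raised the median log2 fold change of all listed genes by 0.123 and the share of higher among called genes from 47.6% to 56.3%. With them, 14 nuclear members were lower instead of 24, the nuclear median was -0.088 and the mitochondrial median 0.378. The mitochondrial median was 0.297 both with TMM factors and with totals over the listed genes. At a threshold of 0.01, 11 nuclear members and 2 mitochondrial members were higher. METTL3 missed the threshold with TMM (-0.25, adjusted p = 0.0573), RLE (-0.17, adjusted p = 0.261), the threshold of 0.01 and no trend (-0.30 in both, adjusted p = 0.12 without the trend). Causes were not tested.

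Without 1 library at a time, 2 to 5 mitochondrial members were higher (2 without sh-Control replicate 2, sh-Control replicate 3 or sh-METTL3 replicate 2), the mitochondrial median was 0.21 to 0.31 and METTL3 was -0.38 to -0.18. The nuclear median was -0.25 to -0.18, and 6541 to 7290 listed genes were called.

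The replicate numbers are shared by the groups, but same-numbered libraries did not deviate together (correlations of 0.0036, 0.019 and -0.015). These correlations cannot show whether same-numbered samples were cultured or prepared together. With the number as a replicate block, 18 nuclear members were higher and 23 lower, 4 mitochondrial members were higher and 3 lower, and 7481 listed genes were called.

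The filter on a mean of 50 removed COX6B2. The total depth of the libraries is unknown, so what it limits could not be assessed.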
